A study of Homo sapiens with 8 samples.

Results

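The translation efficiency (TE) of mRNAs before any loss of METTL5 was described from the wild-type libraries of a ribosome profiling experiment. TE is the number of ribosome-protected fragments (RPF) of a gene relative to its RNA in the same lysate. Of the 11244 genes with deposited values, 10514 had a mean value of at least 10 in both the wild-type input and the wild-type RPF libraries and were kept. Another 293 genes were under that limit in input alone, 197 in RPF alone and 240 in both.

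The series held 8 libraries, an input and an RPF library from each of 2 METTL5-WT and 2 METTL5-KO lysates, and the 4 METTL5-WT libraries are the subject here. Every library was labelled HepG2, an established liver cancer line, with genotype WT or KO. The knockout was made with CRISPR/Cas9 guides that cut out exons of METTL5, the enzyme that methylates an adenosine of 18S ribosomal RNA. All cultures, wild type included, received cycloheximide before lysis, which stops elongating cytosolic ribosomes on the message. The lines were grown from single clones, and which clone gave which lysate was not stated. Nothing says that the 2 lysates of a genotype came from separate cultures, so p-values measure only the spread between these samples.

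Ribosome profiling sequences the short stretch of mRNA that a ribosome shields from nuclease, so RPF reads mark messages in use. A message is loaded mainly according to how often a scanning ribosome reaches its start codon, and short open reading frames in the 5′ untranslated region (UTR) commonly reduce that rate. mRNAs of ribosomal proteins and elongation factors begin with a C and a run of pyrimidines, the TOP motif, through which growth signals switch their translation on and off.

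The libraries labelled HepG2 did not carry the RNAs that define hepatocytes. None of 10 hepatocyte markers had a row in the TE table, and in the input count table the 10 together had 6 and 4 reads in the 2 METTL5-WT libraries of 11211608 and 10710226 reads. ALB (albumin), APOA1, APOA2 and AFP had 0 reads in both METTL5-WT inputs, a count that allows up to 3 reads in a library (0.268 and 0.280 CPM), counting error only. TTR, FGB and SERPINA1 were also at 0 in both. APOB had 4 and 2 reads, TF (transferrin) had 2 and 1, and HNF4A had 0 and 1. The METTL5-KO inputs were much the same, with 7 and 14 reads over the 10 markers and at most 9 for a single gene, AFP. Of 15 markers of other cell types, COL3A1 and COL1A1, fibrillar collagens, had over 100 reads in both METTL5-WT inputs. COL3A1 had 3317 and 3042 reads and COL1A1 had 429 and 484, while the blood cell markers PTPRC and CD3E had at most 1. Bulk libraries cannot tell less RNA in every cell from fewer cells that carry it. The cells are called here only by their label, and what they were was not tested.

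**Figure D1:**
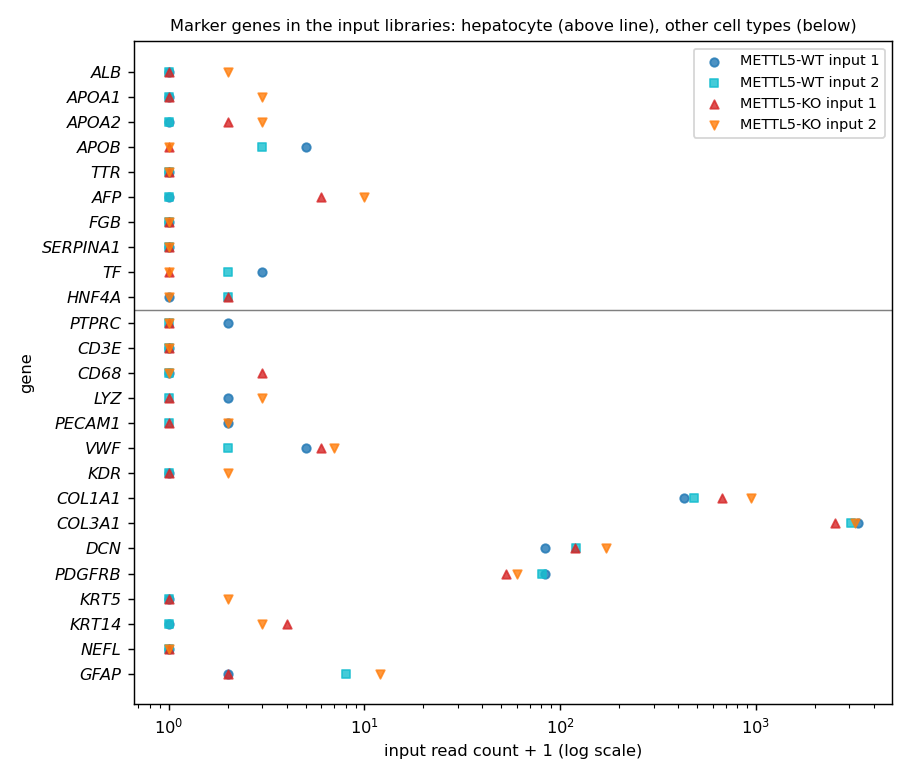
Input read counts plus 1 (log scale, x axis) of 10 hepatocyte markers (above the line) and 15 markers of other cell types (below) in the 2 METTL5-WT and 2 METTL5-KO input libraries, each symbol a library. The hepatocyte markers lie at 0 to 9 reads in all 4 libraries, and COL3A1 lies between 2536 and 3317.

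TE spanned a wide range and was close between the lysates. The METTL5-WT input libraries held 10492056 and 10062407 reads over the genes of the table, and the RPF libraries held 3970779 and 4592443. TE was taken as log2(RPF + 1) minus log2(input + 1) and set to 0 at the median gene, so it understates the distance of genes with few reads. The middle 50% of genes lay between -0.79 and 0.72, and the 5th and 95th percentiles at -2.08 and 1.75 were 14.2-fold apart. The SD of TE across genes was 1.21. Between the 2 lysates of a gene the median SD was 0.171 and the root mean square SD 0.380. Across the 10514 genes Pearson's r between the lysates was 0.907, a description across genes that share libraries. TE was weakly related to the amount of RNA, with a Spearman's rho of -0.12 against the input mean.

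A gene was called high or low in TE when limma's adjusted p was under 0.05 and the gene lay at least 2-fold from the median gene. By that rule 1801 genes were high, 17.1% of those tested, and 2033 were low, 19.3%. These shares are the background for the gene groups that follow. The METTL5-KO lysates were not used in this fit. In them 99.2% of the high genes and 99.8% of the low genes lay on the same side of the median, and 65.1% and 69.7% were at least 2-fold from it in both lysates. Over all kept genes Pearson's r of TE between the genotypes was 0.922. How a gene could be counted, described below, applied to both genotypes alike.

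**Figure D2:**
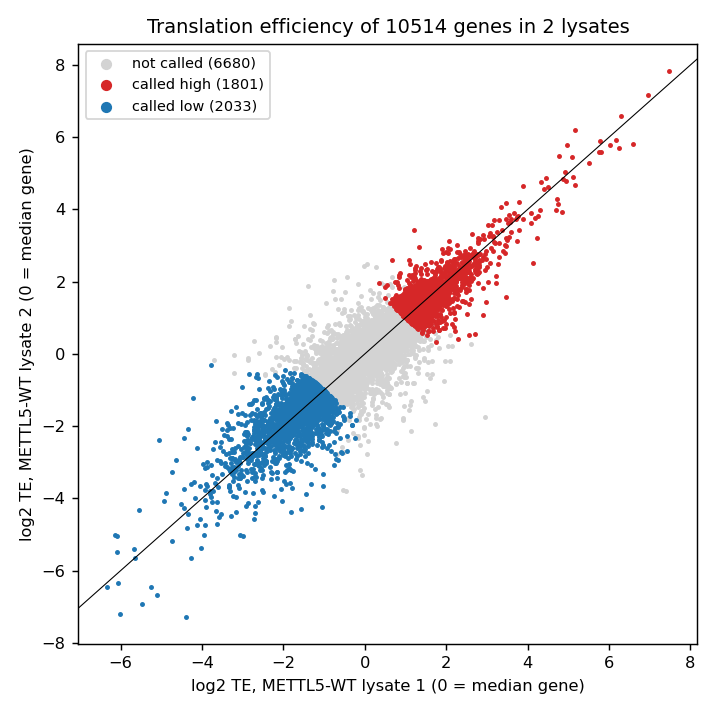
log2 TE of each kept gene in METTL5-WT lysate 1 (x axis) and lysate 2 (y axis), 0 being the median gene and the line marking equal values. The 1801 high (red) and 2033 low (blue) genes follow the line, and the scatter widens among the lowest genes, where RPF reads are few.

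How a gene could be counted differed from gene to gene and was measured. Input reads were assigned over all exons, and a base covered by exons of 2 genes on the same strand is ambiguous. RPF reads that matched several places were discarded, and input reads were likewise counted only when uniquely mapped. For each gene the share of its exon bases that another gene on its strand also covers was computed, together with the share of 28-base windows of its coding sequence found again elsewhere in the genome. Both shares were under 5% in 7948 genes, called single-locus genes below. Windows were matched exactly, while the authors' RPF alignment allowed 2 mismatches. Near-identical copies can thus be missed, and a single-locus gene need not be uniquely countable.

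The genes at the ends of the TE range were mostly not single-locus genes. Of the 20 genes highest in TE, 17 shared at least 5% of their exon bases with another gene, against 8.18% of all kept genes. Of the 20 lowest, 13 had at least 5% recurring coding windows, against 18% of all. A single gene in each set of 20 was a single-locus gene. Genes with over 50% shared exon bases had a median TE of 1.25 (58 genes, 53.4% high), and genes with over 75% recurring windows had a median of -1.47 (141 genes, 58.9% low). The part of either measure in the TE of a gene was not tested.

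The highest TE belonged to PFDN5, a subunit of the prefoldin co-chaperone, with 21 and 16 input reads and 1141 and 1388 RPF reads. Its log2 TE was 7.48 and 7.83 in the lysates (mean 7.65, adjusted p = 7.2e-09, limma), and 25.7% of its exon bases were shared. EIF4A1, the RNA helicase of the cap-binding complex, had 80 and 69 input reads and 2860 and 3542 RPF reads, a TE of 7.06 and 47.4% shared exon bases. For both genes RPF reads outnumbered input reads in each lysate although the RPF libraries were the smaller ones. NOP2, an rRNA methyltransferase, had a TE of 6.45 with 54.4% shared, and TXNDC5, a disulfide isomerase of the endoplasmic reticulum (ER), 5.83 with 61.0% shared. IQCH was the single-locus gene among the 20 highest, with 63 and 38 input reads, 662 and 1016 RPF reads and a TE of 5.69. In the METTL5-KO lysates its TE was 3.50 and 3.81, below both wild-type values of 5.18 and 6.20. That difference passed limma's interaction test over all 8 libraries (adjusted p = 0.0036), as did 5.29% of the genes tested.

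The lowest TE belonged to ARL6IP1, an ER membrane-shaping protein, with 4440 and 4391 input reads and only 19 and 10 RPF reads. Its log2 TE was -6.02 and -7.20 (mean -6.61, adjusted p = 1.5e-07, limma), with 23.9% of its coding windows recurring. NPM1, the nucleolar chaperone nucleophosmin, had 8219 and 8148 input reads against 34 and 64 RPF reads, a TE of -5.78 and 93.0% recurring windows. CREBL2, a small leucine zipper protein, was the single-locus gene among the 20 lowest, with 811 and 794 input reads, 3 and 8 RPF reads and a TE of -5.56. Input reads were many for all of these and RPF reads few.

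Among abundant single-locus genes, a choice made after the values were seen, the range was narrower. Those with an input mean of at least 1000 were led by HIST1H4H, an H4 histone, with 6214 and 5507 input reads, 18402 and 21038 RPF reads and a TE of 3.41. INF2, an actin-nucleating formin, followed with 1918 and 1889 input and 3698 and 4479 RPF reads (TE 2.76). SFN, the 14-3-3 sigma protein, had 2503 and 2728 input and 4990 and 5834 RPF reads (TE 2.71). RHOA, a small GTPase of the actin cytoskeleton, reached 2.36 with the lysates further apart, at 1.93 and 2.79. FASN, fatty acid synthase, was at 2.33 and 2.28.

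The least loaded of these abundant single-locus genes included regulators of transcription, splicing and signalling. CGGBP1, a CGG-repeat DNA-binding protein, had 2598 and 2739 input reads, 48 and 58 RPF reads and a TE of -3.99. PDE10A, a cyclic nucleotide phosphodiesterase, had 1832 and 1660 input and 28 and 50 RPF reads (TE -3.86). SRSF2, a splicing factor known to tune its own mRNA by splicing, had 3237 and 3067 input and 98 and 70 RPF reads (TE -3.58). VGLL3 and TEAD1, a cofactor and a transcription factor that act together, were at -3.55 and -3.08. For VGLL3 the input held 6407 and 6800 reads and the RPF 204 and 154, and for TEAD1 6878 and 6835 against 261 and 251. Dividing RPF by coding length and input by canonical transcript length left VGLL3 at -1.28 and TEAD1 at -1.34, values called below those with lengths divided out. A second division used the length of all exons of the gene for input. The same step left CDC42SE2 at -0.29 from -3.26 and MBNL3 at -0.86 from -3.25, both then within 2-fold of the median gene, so their low call rests on the scale used.

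The genes with the most RPF reads were RPL37, S100A4, RPL8, ACTB, ACTG1, GAPDH, HIST1H3B, PKM, ENO1 and HIST1H4H. S100A4, a calcium-binding protein of motile cells, had 27584 and 29694 input and 25982 and 33874 RPF reads, a TE of 1.71. ACTB, cytoplasmic actin, had 37054 and 35959 input and 24740 and 27555 RPF reads, a TE of 1.18 (0.72 with lengths divided out). ENO1, the glycolytic enolase, had the most input of these, 39880 and 39837 reads, and a TE of 0.79 that did not reach 2-fold.

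**Figure D3:**
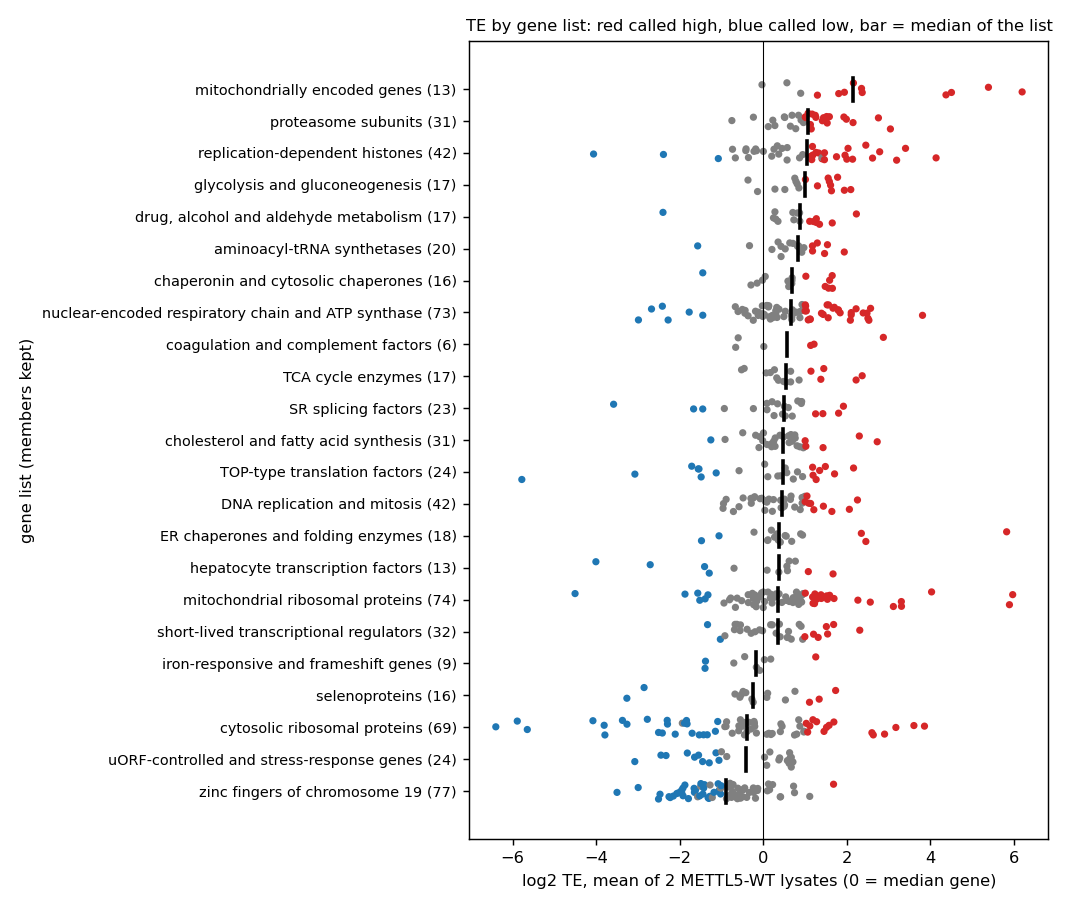
log2 TE (x axis, mean of 2 METTL5-WT lysates, 0 being the median gene) of the kept genes of each gene list (y axis, number kept in brackets), red for high, blue for low and a bar at the list's median. Proteasome subunits (median 1.08) have no low gene, zinc fingers of chromosome 19 (median -0.88) have 1 high gene, and cytosolic ribosomal proteins spread from -6.40 to 3.87.

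Ribosomal protein mRNAs lay at both ends of the TE range. The 5′ ends of a few TOP mRNAs, high and low ones, are printed to show the motif. They are the 20 bases at the start of the GENCODE 44 canonical transcript on hg38, with the opening pyrimidine run in capitals.
RPL37: CTCTTCCggtctttctggtc
RPLP2: CCTTTTCCTCCCTgtcgcca
EEF2: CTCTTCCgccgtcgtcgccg
RPS12: CTCTTTCCCTgccgccgccg
NPM1: CTTTCCCTggtgtgattccg
RPL37 lies at chr5:40825262-40835222 (minus strand), RPLP2 at chr11:809965-812880 (plus), EEF2 at chr19:3976056-3985463 (minus), RPS12 at chr6:132814569-132817564 (plus) and NPM1 at chr5:171387116-171411810 (plus). All 5 runs are 5′ UTR or transcript start sequence. A start with C and a pyrimidine run of at least 5 bases was found in 53 of 69 ribosomal protein genes (76.8%) and in 5.78% of all kept genes. Over all kept genes with such a start the median TE was -0.06, and without it 0.00. Among the 69 ribosomal protein genes the medians were -0.20 with it (53 genes) and -1.24 without. Among 24 other mRNAs listed as TOP, most of them of translation factors, they were 0.48 (22 genes) and -0.94. The last value rests on the few of the 24 without such a start. Recurring coding windows were not matched in these comparisons.

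Of the 79 cytosolic ribosomal protein genes 69 were kept, 15 were high (21.7%) and 23 low (33.3%), with a median TE of -0.38 against 0 for all genes. The median was -0.72 with lengths divided out and turned to 0.37 with exon length as divisor, so the side of the family depends on the scale. RPL37, a large-subunit protein, had 14252 and 15134 input reads and 69265 and 66135 RPF reads, the most of any gene, and a TE of 3.87. RPLP2, an acidic stalk protein, had 3044 and 2826 input and 8467 and 8351 RPF reads (TE 3.18), and RPL28 had a TE of 3.61. At the other end, RPS20, a small-subunit protein, had 5263 and 5381 input reads and 18 and 21 RPF reads (TE -6.40). RPL15 had 4145 and 3762 input against 23 and 26 RPF reads (TE -5.65), and RPL9 1144 and 1008 against 9 and 3 (TE -5.89). RPS12 had 6791 and 6327 input and 137 and 159 RPF reads (TE -3.81).

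The recurring share moved with TE within this family, whose processed pseudogenes are scattered over the genome. It was 79.1% in RPS20, 89.8% in RPL15 and 94.6% in RPL9, against 50.0% in RPL37, 34.6% in RPL28 and 26.2% in RPLP2. The median share was 80.5% over the 23 low genes and 47.6% over the 15 high ones, and Spearman's rho with TE was -0.55 over the 69 genes. The 19 genes with 25 to 50% recurring windows had a median TE of 0.88, and the 34 with over 75% had -1.03. None of the 69 was a single-locus gene, so the family could not be described without this. As a whole it held 3.48% and 3.41% of input reads and 5.71% and 5.22% of RPF reads in the 2 lysates. RPL37 alone had 69265 and 66135 of the 3970779 and 4592443 RPF reads, so the family's RPF share rests in large part on that gene.

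**Figure D4:**
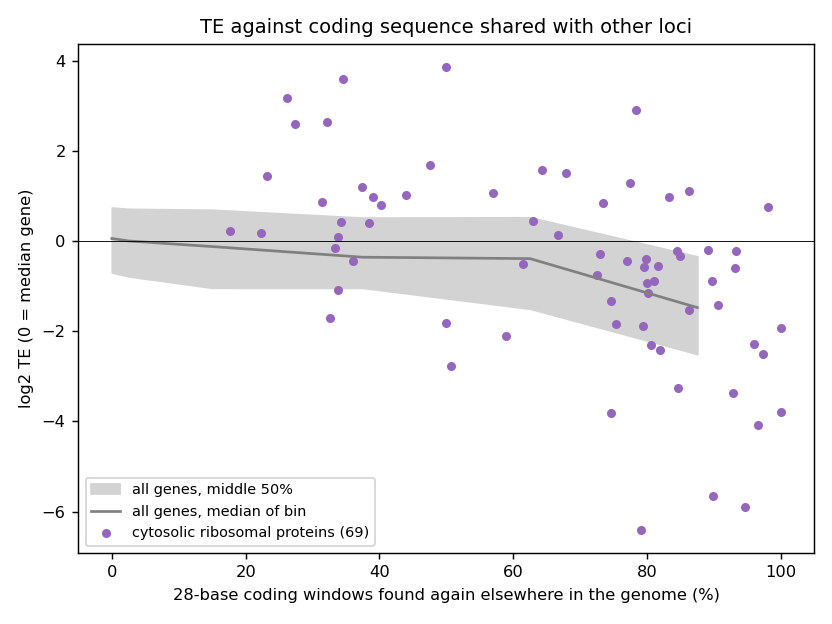
log2 TE (y axis) against the percentage of 28-base coding windows found again elsewhere in the genome (x axis) for the 69 ribosomal protein genes (points), with the median and middle 50% of all kept genes by bin (grey). TE falls from left to right among the points, and the grey median drops to -1.47 in the last bin.

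The other TOP mRNAs, most of them of translation factors, also held both high and low genes. The list takes in some that are not translation factors, among them NPM1, its lowest gene. Of 24 kept genes 7 were high and 7 low (29.2% each), with a median TE of 0.48. EEF2, the translocase of elongation, had 23826 and 22202 input and 16383 and 18779 RPF reads and a TE of 1.27 (0.42 with lengths divided out), and NACA, the nascent-chain complex subunit, reached 2.17. EEF1A1, which brings aminoacyl-tRNA to the ribosome, was at -1.71 with 98.9% recurring windows. The 6 single-locus genes of the list had a median of 1.23 with 4 high and none low.

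Protein degradation and energy metabolism stood on the loaded side. Of 31 proteasome subunits 18 were high (58.1%) and none low, with a median of 1.08, and in the 19 single-locus ones 11 were high with a median of 1.02. PSMC4, an ATPase of the regulatory cap, had 1167 and 987 input and 1330 and 1719 RPF reads (TE 2.15). PSMB2, a core subunit, was at 2.00 and PSMD11 was lowest at -0.75. Of 17 glycolysis and gluconeogenesis genes 9 were high (52.9%) and none low, with a median of 1.02. GAPDH was at 2.10 with 19496 and 17165 input and 24639 and 24946 RPF reads, and PFKM, the muscle-type phosphofructokinase, at 1.56 (0.82 with lengths divided out). Both groups have short 3′ UTRs, with medians of 233 and 511 bases against 1367 for all genes. With lengths divided out their medians were 0.41 and 0.69, and with exon length as divisor 1.07 and 1.09.

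Of 73 nuclear-encoded respiratory chain and ATP synthase genes 27 were high (37.0%) and 6 low (8.22%), with a median of 0.68. ATP5F1D, the delta subunit of the ATP synthase, had 428 and 444 input and 769 and 881 RPF reads (TE 2.58). NDUFV2, a complex I subunit, was highest at 3.82, with 28.4% shared exon bases and 53.1% recurring windows. Of 17 tricarboxylic acid cycle enzymes 5 were high and none low (median 0.55), and of 74 mitochondrial ribosomal proteins 20 were high and 6 low (median 0.36). MRPL12, the lowest of the latter at -4.50, shared 69.5% of its exon bases, and their highest gene, at 5.98, shared 23.25%. With lengths divided out the medians were 0.58 (respiratory chain), 0.19 (cycle enzymes) and 0.43 (mitochondrial ribosomal proteins). With exon length as divisor they were 1.22, 0.44 and 0.63.

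The machinery that makes and folds proteins differed by component. Of 20 aminoacyl-tRNA synthetases, all single-locus genes, 6 were high and 1 low, with a median of 0.84. FARSA, the alpha subunit for phenylalanine, had 1283 and 1362 input and 1554 and 1667 RPF reads (TE 1.95), and IARS, the isoleucine enzyme, was the low one, with 4879 and 4474 against 434 and 572 (TE -1.57). The list's median went to 0.04 with lengths divided out and 0.52 with exon length as divisor. Of 16 cytosolic chaperones 6 were high and 1 low. CCT7, a subunit of the chaperonin ring, was at 1.66 (0.69 with lengths divided out) and DNAJB1, a heat-inducible co-chaperone, at -1.44. Of 18 ER chaperones and folding enzymes 3 were high and 2 low, with ERP29 at 2.46 and DNAJB9, a stress-induced co-chaperone, at -1.48 (-0.78 with lengths divided out).

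Of 31 cholesterol and fatty acid synthesis genes 5 were high and 1 low, with a median of 0.49. INSIG1, the sterol sensor that retains the pathway's activator in the ER, was the low gene at -1.25, a call lost with lengths divided out (-0.59). FASN was high at 2.31. CYP51A1, a sterol demethylase, was at 2.73 with 80.6% of its exon bases shared.

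Most plasma protein genes of the liver had no value in the TE table. Of 26 plasma transport and oncofetal genes 22 had no row in the TE table, of 18 apolipoproteins 13, and of 43 coagulation and complement factors 34. In the METTL5-WT inputs 21, 12 and 28 of them respectively had at most 3 reads in both libraries. H19, an oncofetal noncoding RNA with no row, had 7094 and 6682 reads there. A2M, a plasma protein gene, had 830 and 723 (TE 0.05, not called). Kept were 3, 4 and 6 genes of the lists, with medians of 1.48, -0.22 and 0.58. High were 2, 1 and 3 of them, and 1 apolipoprotein was low. CLU, the extracellular chaperone clusterin, had 10409 and 10606 input and 8101 and 8511 RPF reads (TE 1.32). VTN, the adhesion protein vitronectin, had 164 and 186 input and 260 and 282 RPF reads (TE 2.29). F12, coagulation factor XII, had 45 and 53 input and 127 and 107 RPF reads (TE 2.88), and C1R, a complement protease, was at 1.14, a call lost without RPF 1 and with lengths divided out (0.23). APOL6, the low apolipoprotein, had 127 and 170 input and 17 and 24 RPF reads (TE -1.18), a call lost without input 2 (-0.94) and turned to 0.96 with lengths divided out. C4BPB, a complement regulator, had 2661 and 2173 input and 707 and 837 RPF reads (TE 0.02). TFPI, the tissue factor inhibitor, was at -0.66, APOM at -0.71 and PROS1, protein S, at -0.60, none of them called.

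Of 29 transcription factors used by hepatocytes 13 were kept, 2 high and 4 low, with a median of 0.38 that was -0.05 with exon length as divisor. CEBPD was high at 1.68 and TBX3 at 1.08, the latter not without RPF 1 or input 2. CEBPG, a partner of other C/EBP proteins, had 640 and 607 input and 14 and 10 RPF reads (TE -4.00). PPARA, the fatty acid receptor, had 284 and 268 input and 13 and 13 RPF reads (TE -2.70), and -0.999 with lengths divided out. Of 42 genes of drug, alcohol and aldehyde metabolism 17 were kept, 7 high and 1 low (median 0.87). POR, the electron donor of the cytochromes P450, was at 1.66 (0.78 with lengths divided out) and ALDH7A1, an aldehyde dehydrogenase, at 2.23. ALDH3A2, the fatty aldehyde dehydrogenase, was low with 2653 and 2500 input and 138 and 172 RPF reads (TE -2.40), and NQO1, a quinone reductase, was at 0.82.

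Genes known for upstream open reading frames (uORFs) had no high gene among them. Short uORFs of 4 of the low genes are printed to show what lies ahead of their coding sequence. They come from the 5′ UTR of the GENCODE 44 canonical transcript on hg38, with start and stop codons in capitals, and only complete frames of at most 30 bases are given.
AMD1: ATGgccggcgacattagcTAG
ATF4: ATGTAG
ATF4: ATGgcgtatTAG
CEBPA: ATGccgggagaactcTAA
SLC35A4: ATGtggtggccaaacTGA
SLC35A4: ATGctgtgcccaacgtggagaagacatTAA
SLC35A4: ATGgaagaggcaggaTGA
AMD1 lies at chr6:110874770-110898879 (plus strand), ATF4 at chr22:39519695-39522683 (plus), CEBPA at chr19:33299934-33302534 (minus) and SLC35A4 at chr5:140564446-140569100 (plus). The frame in AMD1 has 6 codons before its stop, that of CEBPA has 5, and those of ATF4 have 1 and 3.

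Of 24 such genes kept none was high and 10 were low (41.7%), with a median TE of -0.42. The list was split, with 12 of the 24 above the median gene. In the 17 single-locus ones 7 were low with a median of -0.87. With lengths divided out these medians were -0.21 for the list and -0.25 for its single-locus genes. With exon length as divisor the list's median was -0.50. AMD1, which makes the aminopropyl donor for polyamines, had 4344 and 4037 input and 162 and 152 RPF reads. Its TE was -2.93 and -3.22 (mean -3.07, adjusted p = 7.4e-08, limma), with 32.1% recurring windows. ODC1, the entry enzyme of polyamine synthesis, had 8751 and 9045 input against 1026 and 1034 RPF reads (TE -1.45).

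ATF4, the transcription factor of the integrated stress response, had 2304 and 2569 input and 120 and 165 RPF reads (TE -2.45 in both lysates, 66.0% recurring windows). MDM2, the ubiquitin ligase of p53, had 2758 and 2619 input and 179 and 160 RPF reads (TE -2.32). EIF5 was at -1.64 (-0.64 with lengths divided out), SLC35A4 at -1.54 and CEBPA at -1.29. DDIT3, another stress gene with a uORF, had 78 and 68 input and 36 and 36 RPF reads and a TE of 0.64 (adjusted p = 0.080, limma). The call of CEBPA was lost without METTL5-WT input 1. As a list these genes held 0.439% and 0.445% of input reads and 0.175% and 0.179% of RPF reads.

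Upstream ATGs went with low TE over all genes as well. Among 7925 single-locus genes with a complete coding sequence, the median TE was 0.26 with no ATG in the 5′ UTR (4609 genes), -0.12 with 1, -0.31 with 2, -0.45 with 3 to 4 and -0.96 with 5 or more (381 genes). The share of low genes rose over these classes from 10.5% to 48.3%, and that of high genes went from 21% to 5.77%. With lengths divided out the medians ran from 0.20 to -0.80. Genes with more upstream ATGs also have longer 5′ UTRs, so the genes were also split into 4 equal bins of 5′ UTR length. In the bin of longest 5′ UTRs the median was -0.06 without and -0.47 with an upstream ATG, and in the bin of shortest ones 0.38 and 0.18. These are descriptions over genes and no test was made.

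The 3′ UTR showed how much the scale matters. With the genes in 5 equal bins of 3′ UTR length, from the bin of shortest to the bin of longest, the median TE went from 0.72 to -0.70, and the low share from 4.22% to 37.4%. With RPF divided by coding length and input by transcript length the same medians were -0.02 and 0.18. Spearman's rho with 3′ UTR length was -0.46 on the scale as deposited and 0.08 after division, over 7925 genes. For coding length the order was the opposite, 0.03 and -0.32. Upstream ATGs (-0.28 and -0.27) and GC content of the coding sequence (0.43 and 0.36) kept their sign and most of their size on both scales.

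**Figure D5:**
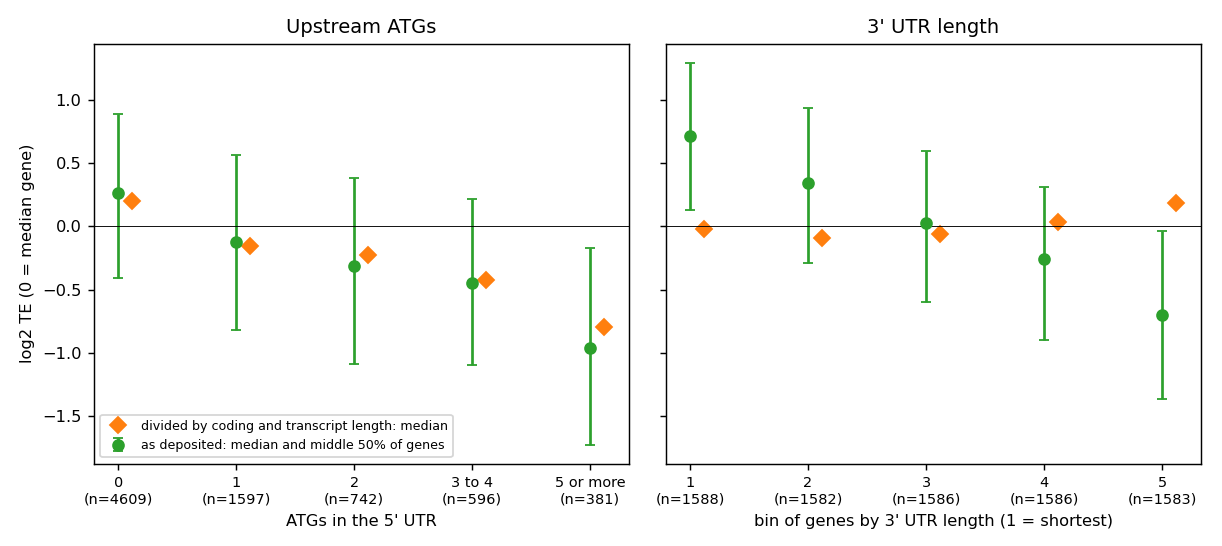
Median log2 TE (y axis) of single-locus genes by the number of ATGs in the 5′ UTR (left) and by bin of 3′ UTR length (right), as deposited (circles, bars for the middle 50% of genes) and with lengths divided out (diamonds). The fall with upstream ATGs is seen in both, from 0.26 to -0.96 and from 0.20 to -0.80, and the fall with 3′ UTR length in the circles alone.

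Context of the start codon made a smaller difference. With a purine 3 bases before the ATG and a G after it the median was 0.13 (3771 genes), and with neither -0.12 (457 genes). Among genes with no upstream ATG the corresponding values were 0.30 and 0.41. The 792 single-locus genes lowest in TE had an upstream ATG in 67.2% of cases and a median coding GC content of 46.8%, against 23.9% and 61.5% in the 792 highest.

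Zinc finger genes of chromosome 19, a large family of repressors of transposable elements, were the least loaded list. Of 77 kept 1 was high and 32 were low (41.6%), with a median of -0.88, and of -0.79 with lengths divided out. ZNF260 had 420 and 400 input and 12 and 21 RPF reads (TE -2.99), and ZNF557 was the high one at 1.69. The list held 0.116% and 0.115% of input reads and 0.0440% and 0.0449% of RPF reads.

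Replication-dependent histones, whose mRNAs end in a stem-loop in place of a poly(A) tail, had more high than low genes. Of 42 kept 20 were high (47.6%) and 3 low, with a median of 1.05 that went to 0.20 with lengths divided out and to -0.05 with exon length as divisor. They held 1.51% and 1.52% of input reads and 3.72% and 3.40% of RPF reads. HIST1H2AK was the lowest, with 1066 and 932 input and 20 and 17 RPF reads (TE -4.06, 31.1% recurring windows). Near-identical copies make single histone genes uncertain, and the 10 single-locus ones had 7 high and none low. The exact matching behind that label can miss such copies, so it does not remove the uncertainty.

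Ferritin and selenium-containing proteins are translated under special control. Of 9 kept genes of a list of iron-responsive and frameshifted genes 1 was high (11.1%) and 2 were low (22.2%). The median of that list was -0.16, and -0.46 with lengths divided out. FTL, the ferritin light chain whose 5′ UTR binds iron regulatory proteins, had 12773 and 13232 input and 1604 and 1555 RPF reads (TE -1.38, 62.4% recurring windows). FTH1, the heavy chain, was at -0.44 with 91.4% recurring, and TFRC, the transferrin receptor regulated through its 3′ UTR, at -0.16. ACO1, an iron regulatory protein itself, was high at 1.26. Of 16 selenoproteins 3 were high and 2 low. SELENOT had 962 and 935 input and 25 and 38 RPF reads (TE -3.26, 53.1% recurring windows), SELENOW was at -2.85 and SELENOO at 1.74 (0.78 with lengths divided out), while GPX4, which detoxifies lipid peroxides, was at -0.24.

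Of 23 SR and related splicing factors 4 were high and 3 low, SRSF4 at 1.81 against SRSF2 at -3.58. Of 32 short-lived transcriptional regulators 7 were high (21.9%) and 2 low (6.25%), in a range from -1.33 to 2.32. Their median was 0.35 (0.53 and 0.27 in the lysates), and 19 of them lay above the median gene. Among the high ones were the immediate early genes IER2 at 1.69 and JUNB at 1.52. Of 42 genes of DNA replication and mitosis 9 were high and none low, with a median of 0.45 that was 0.03 with lengths divided out and -0.16 with exon length as divisor. CDC20, the mitotic activator of the anaphase-promoting complex, was at 2.26 and CCNB1, cyclin B1, had 4911 and 4512 input and 3159 and 3777 RPF reads (TE 1.22, and 0.71 with lengths divided out).

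METTL5 itself had 490 and 542 input and 158 and 226 RPF reads in wild-type cells and a TE of 0.21 (adjusted p = 0.22, limma). Its partner TRMT112, which stabilizes it, had 1787 and 1853 input and 341 and 335 RPF reads and a TE of -0.77 that did not reach 2-fold. Neither of these was a single-locus gene. In the METTL5-KO lysates METTL5 was at -1.32 and -1.65. The knockout cuts out exons of METTL5, so these values are not a TE of its intact mRNA.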

How the data were processed

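Ribosome profiling of METTL5-WT and METTL5-KO cells labelled HepG2 was used, with an input and an RPF library per lysate. Groups and replicate numbers came from the sample titles. The authors digested lysates with micrococcal nuclease, kept fragments of footprint length, removed rRNA reads and processed the RPF reads in RiboToolkit on hg38, which kept reads with a single match. Input reads were aligned with STAR 2.7.3a, and uniquely mapped reads were counted over exons by strand with featureCounts (1.6.0 in the submitters' processing notes). The region over which RPF reads were counted is not given in the sources used here. Used were the deposited counts per gene of the input libraries and the signal values of the deposited TE table. The authors call the latter RPKM, but every value was a multiple of the amount that 1 read is worth in its library (100% within 0.01 of a whole read). A log2 fold change between genotypes and its p-value, computed by the authors per gene, were not used. Each gene of that table has at least 1 read in every library.

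TE was tested with limma 3.58.1 (trended eBayes, two-sided, Benjamini-Hochberg) on log2(value + 1) of the 4 METTL5-WT libraries, RPF against input, after centring on the median gene. The same test on simulated data with known changes was checked. Input and RPF libraries of a number came from the same lysate by the protocol, and the correlation over genes of their deviations was -0.02. edgeR 4.0.16 and DESeq2 1.42.0 were run on the recovered reads, with R 4.3.3 and Python 3.11.15. Transcript parts and sequences came from GENCODE 44 canonical coding transcripts on hg38 (99.8% of genes), which placed 99.95% of genes within 100 kb of the counted start. The coding windows were 28 bases long, every 5 bases, and were matched exactly to hg38. Genes were named by rule: the 12 highest and 12 lowest called genes, the 8 of each with an input mean of at least 1000, the extremes of each list, the 10 with the most RPF reads, and liver and uORF list genes. Only some of these are printed. The gene lists, and the choice of this subject, were made with earlier results of these data known. Lists on collagens, cytoskeleton, vacuolar ATPase and nuclear pore were added after the values were seen. Alternatives tried were other pseudocounts, filters, fits, scales and left-out libraries.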

Additional observations from a re-analysis of the deposited data

Results flagged for a closer look

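TE differed between METTL5-KO and METTL5-WT lysates, by limma's interaction over all 8 libraries, in 556 of 10514 genes (5.29%), among them 8 genes named above. In IQCH the difference was -2.03 on the log2 scale (adjusted p = 0.0036, limma). In METTL5, the targeted gene, it was -1.70 (adjusted p = 0.026, limma). There the knockout lacks exons of the gene, and the part of that in the value was not tested. ATF4 differed by -0.79, FTL by -0.71 and FTH1 by -0.68. RPS20 differed by 0.99, S100A4 by 0.78 and NQO1 by 1.13. In each of the 8 genes both METTL5-KO lysates lay on the same side of both METTL5-WT lysates. RPS20, FTL, FTH1 and ATF4 have 62.4% to 91.4% of recurring coding windows, and their part in the difference was not tested.

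Data outside the TE table held further signal. Of 2814 genes with at least 1000 reads in both METTL5-WT inputs, 46 had no row in the TE table, and 8 of these are annotated as protein-coding. Among these 8, those with the most reads were CD59, a complement inhibitor, with 7981 and 7757 reads, and TMSB4X, an actin-binding peptide, with 3373 and 3153. Their RPF values were not analysed here.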

How the results depend on the processing

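The counts of 1801 high and 2033 low genes stayed within 1.5 times under every alternative but the removal of the fold limit, which gave 3596 and 3538. With the replicate block on the lysate they were 1797 and 2050. Leaving out a library in turn gave 1698 to 1883 high and 1788 to 2158 low genes, the lone library being assumed to vary like the others. Leaving out a whole lysate gives values with no test. edgeR gave 1762 and 2110, DESeq2 1773 and 1982, and single-locus genes alone, an alternative added after the data were seen, 1238 (15.6%) and 1422 (17.9%). Of the 86 called genes named in the text, 54 kept their call under every alternative that covered them and 32 lost it under at least 1, of which 11 outside the length divisions. Of these APOL6 alone changed sign, to 0.96 with canonical transcript length and 0.32 with exon length. Without a single library APOL6 (-0.94 without input 2), CEBPA (-1.26 without input 1), C1R (0.97 without RPF 1) and TBX3 (0.87 without RPF 1, 0.93 without input 2) lost theirs. The calls lost with canonical transcript length were those of CDC42SE2, MBNL3, ACTB, PKM, EEF2, EIF5, SELENOO, CCT7, DNAJB9, PFKM, INSIG1, C1R, PPARA, POR, COL3A1 and CCNB1. With exon length 21 were lost, those of FASN, CDC42SE2, EEF2, EEF1A1, MDM2, EIF5, ACO1, SELENOW, SELENOO, FARSA, DNAJB1, INSIG1, VTN, C1R, CEBPD, TBX3, ALDH3A2, COL3A1, JUNB, CCNB1 and CDC20, and with the GC trend removed 9, among them ACTB, EEF2, COL3A1 and JUNB. The TE of C4BPB, close to 0, was -0.0025 with no filter, -0.033 with a mean of at least 50, -0.020 by edgeR, -0.014 among single-locus genes, -0.79 with canonical transcript length and -0.0956 to 0.134 without a library in turn. The TE of TFPI turned to 0.28 with canonical transcript and 1.24 with exon length, and the TE of APOM went from -1.45 to 0.0025 without a library in turn. TFRC (0.27) changed sign with the GC trend removed, and METTL5 (-0.26) with lengths divided out. With coding and exon length as divisors the median of the ribosomal proteins turned to 0.37 from -0.38. Dividing by lengths moved the median gene itself by 1.77 (exon length) and 1.13 (canonical transcript length), and TE was centred again after it. The causes were not tested. Genes with few RPF reads, such as the lowest ones, are limited by depth, and nothing here measures genes with no row in the TE table.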

Other observations

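The collagens and cytoskeletal genes of these cells, lists chosen after the values were seen, stood on the loaded side. Of 11 kept collagens 7 were high (63.6%) and none low, with a median TE of 1.27 that was 0.65 with lengths divided out. COL1A1 had 429 and 484 input and 557 and 709 RPF reads (TE 2.12), and COL3A1 had 3317 and 3042 against 2229 and 2624 (TE 1.27, and 0.44 with lengths divided out). Of 32 cytoskeletal genes 15 were high (46.9%) and 1 low, with a median of 0.92 and ZYX, the focal adhesion protein zyxin, highest at 2.39. Of 13 vacuolar ATPase genes 4 were high and 2 low (median 0.35), and of 26 nuclear pore genes 4 were high and 3 low (median 0.41, which turned to -0.10 with lengths divided out and -0.19 with exon length as divisor).

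Of the 13 mRNAs encoded by mitochondrial DNA, which mitochondrial ribosomes translate, 10 were high and none low, with a median TE of 2.16 in a range from -0.03 to 6.20. The median was 2.57 and 1.76 in the lysates, 1.02 with lengths divided out and 0.38 with exon length as divisor. MT-ND3 had 242 and 241 input and 6658 and 4813 RPF reads (TE 6.20) and MT-ND6, the gene on the opposite strand, 228 and 186 against 2982 and 2557 (TE 5.40). Together the 13 held 0.291% and 0.279% of input reads and 1.09% and 0.629% of RPF reads. None was a single-locus gene. Of 4 snoRNA host genes with a coding frame 3 were high and TMEM107 was low at -2.56.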
